A study of Mus musculus with 6 samples.

Results

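The FGF and hedgehog signalling genes of the developing mouse lung described here are 9 genes of the 31053 listed for every library, namely Fgf10, Fgf7, Fgfr1, Fgfr2, Spry2, Shh, Ptch1, Gli1 and Hhip. They were chosen by name, as ligands, receptors, feedback genes and targets of 2 signals that pass between lung epithelium and mesenchyme. No cut on their values was used, but earlier results of these data were known at the choice. Each was read in 3 classes of cells set by transcript counts: mesenchymal (at least 5 UMIs of Col1a1 and Col3a1 together and none of Pecam1 or Cdh5), epithelial (at least 1 UMI of Epcam) and endothelial (at least 2 UMIs of Pecam1 and Cdh5 together). A UMI is a molecular tag that counts 1 captured transcript.

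The study followed lung cells that express the chemokine gene Cxcl12 and asked what changes when it is lost. The DsRed reporter of the mice is knocked into the Cxcl12 locus, so a Cxcl12DsRed/+ animal keeps 1 working copy and a Cxcl12DsRed/DsRed animal has none. Of the 6 droplet libraries, 4 hold Cxcl12DsRed/+ cells sorted for DsRed and against CD45 and EpCAM, from embryos of E13.5, E15.5 or E18.5 and from P8 pups. Per the labels and the study's methods, both CD31+ endothelial and CD31- mesenchyme-enriched cells were collected in that sort, although the time course is elsewhere described by a gate for CD31+ cells alone, which would leave out mesenchyme. Which gate each library had was not tested. The other 2 libraries hold unsorted cells of whole E18.5 lungs, labelled as the Cxcl12DsRed/+ control and the Cxcl12DsRed/DsRed null. All 6 groups therefore carry at least 1 DsRed allele, no library is of wild-type lung, and each time or genotype has 1 library of pooled lungs. No difference between times or labels has a replicate check, and no p-value is given. The brackets after values are 95% intervals for counting error alone.

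FGF10 is made by mesenchyme and acts on FGFR2 in the epithelium, where it drives budding and branching, and FGF7 is a second mesenchymal ligand of the epithelial form of FGFR2. FGFR1 serves mainly mesenchymal FGF signals, and SPRY2 is induced by FGF signalling and dampens it. SHH is secreted by the epithelium and binds PTCH1 on neighbouring mesenchyme, which releases SMO and activates GLI transcription factors. Ptch1, Gli1 and Hhip are themselves hedgehog target genes, and HHIP binds and sequesters the ligand.

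The Cxcl12 counts went against the genotype labels of the whole lungs. Cxcl12 stood at 1.27 CPM (counts per 1000000 UMIs, 1.03 to 1.55, 96 UMIs) in the library labelled control and at 190.6 CPM (187.9 to 193.3) in the library labelled null, and at 264 to 1158 CPM in the sorted libraries. The naming of the whole-lung data that the authors deposited likewise gives the reverse genotypes. Groups below follow the labels, and every direction between the libraries labelled null and control would turn round if the labels were exchanged. These 2 libraries shared 140 cell barcodes, 1.58% of the smaller library, against 0.203% to 0.457% for the other pairs, and leaving those cells out moved no member's level or ratio beyond its counting interval. The libraries held 63746333 to 117522172 UMIs over 8845 to 13098 barcodes, and 7448 to 12726 cells passed the filters.

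Sorted mesenchymal cells numbered 11122 at E13.5 but 1798 at E15.5, then 232 at E18.5 and 59 at P8, which is 87.4%, 15.4%, 2.43% and 0.698% of the cells kept. The endothelial class made up 1.65%, 81.15%, 95.57% and 97.73% of the cells kept at the same ages. A gate for CD31+ cells alone would leave mesenchymal cells out, but which gate each library had was not tested. How much the gate, as against age, set which mesenchymal cells were held at each age cannot be told apart. The class held 4299 and 3818 cells of the whole lungs labelled null and control. All 8 fixed mesenchymal markers reached 5 CPM in the class in each of the 5 embryonic libraries, and the median depth of its cells there lay between 7206 and 8551 UMIs. The endothelial class held 3019 and 1923 cells of the whole lungs, and the epithelial class 620 and 803, with all 7 endothelial and all 6 epithelial markers at 5 CPM or more. Of these epithelial cells, 84 and 113 met the mesenchymal rule as well, and 71 and 57 the endothelial rule. The marker lists include the genes that set the classes, and the bar of 5 CPM did not tell the classes apart. All 8 mesenchymal markers also reached it in the epithelial and endothelial classes of both whole lungs. Their sums were 8164 and 6028 CPM in the mesenchymal, 626 and 582 CPM in the epithelial and 725 and 519 CPM in the endothelial class. A comparison class of 512 and 485 cells with Ptprc, the CD45 gene, no Epcam, Pecam1 or Cdh5 and fewer than 5 collagen UMIs was read beside these classes. Its median depth of 14799 and 14664 UMIs was above the 8946 and 8145 UMIs of the endothelial class, so its levels are no measure of free RNA in shallower cells. In the sorted libraries of E13.5 and E15.5 the epithelial class was not usable as such, since 130 of its 151 cells at E13.5 met the mesenchymal rule as well and 99 of its 138 cells at E15.5 the endothelial rule. At E18.5 it held 52 cells, of which 18 met the endothelial and 3 the mesenchymal rule, with all 6 epithelial markers at 5 CPM or more, Shh at 80.99 CPM and Fgfr2 at 134.5 CPM.

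Start-site windows of 6 of the 9 members were at hand from RefSeq on GRCm38.p6, each running from 250 bases before to 50 bases after the start. Fgfr1, Shh and Gli1 had no window. Those of Ptch1, Hhip and Fgf10 are shown, because the first 2 are the hedgehog targets and Fgf10 the ligand whose levels the results turn on. They cover chr13:63565686-63565985 (minus strand), chr8:80057959-80058258 (minus strand) and chr13:118714449-118714748 (plus strand), and are written 5′ to 3′ along the gene with the single GC box of each window, GGGGCGGGG or its reverse complement CCCCGCCCC, in capitals.
Ptch1: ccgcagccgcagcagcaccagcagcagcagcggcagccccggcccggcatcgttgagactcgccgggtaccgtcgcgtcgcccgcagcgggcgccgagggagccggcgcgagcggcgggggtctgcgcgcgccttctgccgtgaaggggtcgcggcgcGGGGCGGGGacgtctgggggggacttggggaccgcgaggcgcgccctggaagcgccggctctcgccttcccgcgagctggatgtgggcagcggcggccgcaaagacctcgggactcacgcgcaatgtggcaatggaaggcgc
Hhip: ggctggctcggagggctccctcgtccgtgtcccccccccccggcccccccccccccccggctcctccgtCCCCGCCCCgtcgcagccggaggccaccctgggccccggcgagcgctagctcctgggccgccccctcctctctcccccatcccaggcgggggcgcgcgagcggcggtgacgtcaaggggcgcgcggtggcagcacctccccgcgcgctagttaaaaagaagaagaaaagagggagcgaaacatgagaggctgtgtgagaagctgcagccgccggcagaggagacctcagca
Fgf10: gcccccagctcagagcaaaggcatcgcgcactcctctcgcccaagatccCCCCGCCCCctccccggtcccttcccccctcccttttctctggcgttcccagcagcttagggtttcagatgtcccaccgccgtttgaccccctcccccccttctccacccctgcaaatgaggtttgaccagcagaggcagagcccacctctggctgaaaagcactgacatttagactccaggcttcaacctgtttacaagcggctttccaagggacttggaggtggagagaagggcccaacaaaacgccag
The GC box occurred in 11.45% of 32851 windows of this length and in 3 of the 6 members, the 3 printed. The Ptch1 window held 47 CpG dinucleotides and 76.3% G and C, and 1.44% of all windows had as many CpGs. Hhip had 30 CpGs, which 11.7% of windows reached, and Spry2 28, while Fgf7 had 11, Fgf10 10 and Fgfr2 4. The GLI motif TGGGTGGTC or its reverse complement GACCACCCA was found in 83 windows (0.253%) and in 0 of the 6 members' windows, which says only that these letters are not in these windows. In the annotation of GRCm38, the windows of Ptch1, Fgf10 and Fgfr2 lie inside the gene models.

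On GRCm38, Fgf10 (ENSMUSG00000021732) spans chromosome 13 from 118669791 to 118792115 and Fgf7 (ENSMUSG00000027208) chromosome 2 from 126034658 to 126091185, overlapping Fam227b on the other strand. Fgfr1 (ENSMUSG00000031565) lies on chromosome 8 from 25513654 to 25575718. Fgfr2 (ENSMUSG00000030849) is drawn on chromosome 7 from 130162451 to 133123350, a model that runs across many other genes, Spry2 (ENSMUSG00000022114) on chromosome 14 from 105891947 to 105896819, and Shh (ENSMUSG00000002633) on chromosome 5 from 28456815 to 28467256. Ptch1 (ENSMUSG00000021466) spans chromosome 13 from 63508328 to 63573598, Gli1 (ENSMUSG00000025407) chromosome 10 from 127329882 to 127341974, across from Arhgap9, and Hhip (ENSMUSG00000064325) chromosome 8 from 79965851 to 80058006. In the last 300 bases of their transcripts, where 3′ tags fall, none of the 9 shared a 60-base stretch with another gene.

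In whole E18.5 lungs the 9 genes split by class in the same way in both libraries. Fgf10, Fgf7, Fgfr1, Ptch1, Gli1 and Hhip were highest in the mesenchymal class and Fgfr2, Spry2 and Shh in the epithelial class. Of 12400 genes, 30.3% were highest in the mesenchymal class in both libraries and 24.3% in the epithelial class. The order of the highest class was kept under each alternative of processing that was run.

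Of the ligands, Fgf10 stood at 37.4 CPM (35.5 to 39.3) in mesenchymal cells of the library labelled null and 44.7 CPM (42.4 to 47.1) of that labelled control. In epithelial cells it stood at 4.07 and 5.41 CPM and in endothelial cells at 2.92 and 4.69 CPM. Its mesenchymal level was thus higher by 3.05 and 2.94 on the log2 scale than the next class. Fgf7 stood at 61.6 CPM (59.2 to 64.0) and 64.9 CPM (62.1 to 67.7) in mesenchymal cells and between 5.99 and 6.35 CPM in the other classes. Both FGF ligands were therefore mesenchymal in these lungs, each with about the same lead over the other classes in both libraries.

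Shh, the hedgehog ligand among the members, was highest in the epithelium. It stood at 46.1 CPM (42.5 to 50.02) and 47.4 CPM (44.0 to 51.1) in epithelial cells of the libraries labelled null and control. It stood at 1.23 and 2.41 CPM in mesenchymal and at 1.74 and 1.87 CPM in endothelial cells, and at 0.635 CPM and 0 UMIs in Ptprc cells. After each cell was thinned to 2000 UMIs, 8.56% (6.48 to 11.1) and 9.36% (7.44 to 11.6) of epithelial cells had a Shh UMI, against 0.197% of 508 and 0 of 485 Ptprc cells. Its lead over the next class was 4.38 and 4.04 on the log2 scale. Within the epithelium it was found under each gate of marker genes: cells with at least 5 UMIs of Ager and Hopx and no Lamp3 or Abca3 had 52.3 CPM (42.1 to 64.3) and 67.1 CPM (56.1 to 79.6), and Foxj1 cells 41.8 and 40.7 CPM.

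The receptors divided between classes. Fgfr2 stood at 108 CPM (102 to 113.5) and 153.5 CPM (147 to 159.9) in epithelial cells, at 27.3 and 40.6 CPM in mesenchymal and at 27.3 and 36.3 CPM in endothelial cells. Within the epithelium its level depended on the gate: in the library labelled control it reached 324 CPM (293 to 357) in 86 cells with Lamp3 or Abca3, against 45.6 CPM (36.6 to 56.1) in the 146 Ager and Hopx cells and 67.3 CPM (58.9 to 76.5) in the 118 Foxj1 cells. In the library labelled null the corresponding levels were 179 CPM (149 to 213) in 45 cells, 33.9 CPM (25.8 to 43.8) in 99 cells and 40.3 CPM (33.7 to 47.8) in 117 cells. Fgfr2 was thus highest where the genes of surfactant-producing alveolar cells were found, in both libraries. Fgfr1 stood at 79.0 CPM (76.3 to 81.8) and 64.7 CPM (62.0 to 67.6) in mesenchymal cells, at 33.7 and 24.0 CPM in endothelial and at 11.6 and 13.9 CPM in epithelial cells. Spry2, the feedback gene, was the least divided of the members, with 26.3 and 26.8 CPM in epithelial, 16.9 and 17.6 CPM in mesenchymal and 10.3 and 10.2 CPM in endothelial cells.

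Of the hedgehog targets, Hhip stood in mesenchymal cells at 666 CPM (658 to 674) in the library labelled null and 859 CPM (849 to 869) in that labelled control. Ptch1, the SHH receptor, stood at 139 CPM (135 to 142) and 175 CPM (171 to 179.8) in mesenchymal cells, and at 40.7 and 55.0 CPM in epithelial and 39.6 and 38.4 CPM in endothelial cells. Gli1, the transcription factor, stood at 13.7 CPM (12.6 to 14.9) and 11.6 CPM (10.48 to 12.9) in mesenchymal cells and under 2 CPM in both other classes. Gli1 counts were thus mostly mesenchymal, whereas Ptch1 was also read in the other classes. Hhip was uneven among cells. At least 5 of 2000 thinned UMIs were Hhip in 12.9% and 16.4% of mesenchymal cells, and the tenth of cells with most of it held 48.3% and 41.5% of its UMIs.

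**Figure D1:**
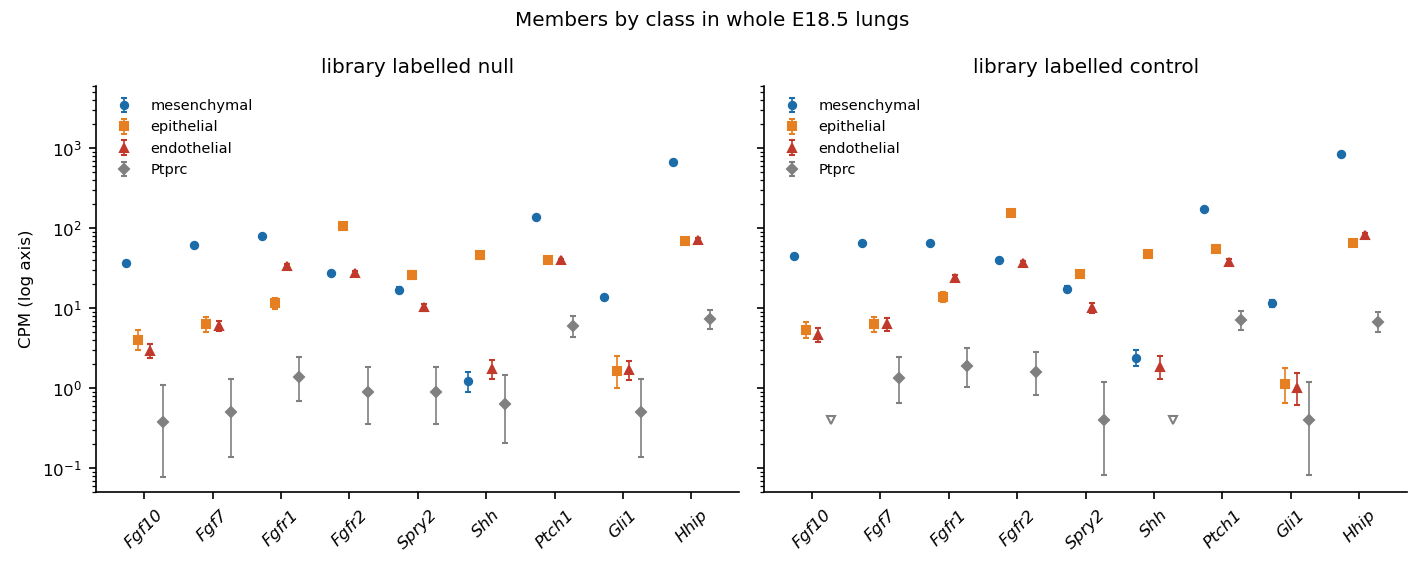
Levels of the 9 members in CPM (log axis) in the mesenchymal, epithelial, endothelial and Ptprc classes of the 2 whole-lung libraries. Points are class sums, bars 95% Poisson intervals and open downward triangles a count of 0 drawn at the level of 3 counts. Fgf10, Fgf7, Fgfr1, Ptch1, Gli1 and Hhip were highest in the mesenchymal class and Fgfr2, Spry2 and Shh in the epithelial class of both.

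Hhip levels outside the mesenchyme were far higher in cells that also held collagen transcripts. In endothelial cells Hhip stood at 72.3 and 83.2 CPM over the class. The 293 and 177 endothelial cells with at least 5 UMIs of Col1a1 and Col3a1 had 375 CPM (359 to 391) and 453 CPM (429 to 477), and the rest 11.5 CPM (10.3 to 12.8) and 16.7 CPM (14.8 to 18.7). The doublet caller Scrublet marked 79.5% and 83.6% of the former and 2.97% and 4.12% of the latter, and their median depth was 17525 and 15254 UMIs against 8502 and 7726. With the Scrublet calls removed, 60 and 29 of the collagen-bearing cells were left, at 402 and 331 CPM. In the epithelium, 106 and 130 collagen-bearing cells had 371 and 315 CPM of Hhip and the rest 6.16 CPM (4.75 to 7.85) and 5.72 CPM (4.45 to 7.23), which is no higher than the 7.36 and 6.75 CPM of the Ptprc cells. Scrublet marked 29.3% and 51.5% of these collagen-bearing cells and 4.67% and 4.90% of the rest, and the 75 and 63 that it left had 482 and 331 CPM. In sorted E18.5 endothelium, 77 collagen-bearing cells had 67.8 CPM on 82 Hhip UMIs and the others 1.68 CPM on 99.

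Ptch1 was also higher in the collagen-bearing cells, at 99.5 and 116.3 CPM in endothelial and 84.5 and 108 CPM in epithelial cells. Endothelial cells with fewer than 5 collagen UMIs held 27.6 CPM (25.7 to 29.6) and 24.3 CPM (22.0 to 26.8) of it, and epithelial cells 31.6 and 42.3 CPM. With values adjusted by the authors for free RNA, the endothelial Ptch1 level under 5 collagen UMIs was 14.7 CPM in the library labelled null and 2.21 CPM in that labelled control, and the epithelial level 20.8 and 14.3 CPM, so both depended on that adjustment. Epithelial Fgfr2 was higher without the collagen-bearing cells, at 112 and 167 CPM, as was Shh, at 50.04 and 52.4 CPM. Fgf10 stood at 0.190 and 0.166 CPM in epithelial cells with fewer than 5 collagen UMIs, and at 0 in both libraries with the adjusted values.

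In the sorted mesenchyme, 3 of the 8 members of at least 5 CPM passed 2-fold between E13.5 and E15.5. Fgf7 was higher, and Ptch1 and Gli1 were lower at E15.5. Among 10457 genes of that level, 7.46% were 2-fold higher, 4.89% lower and 12.3% either. Between E15.5 and E18.5, Fgf7, Gli1 and Hhip were past 2-fold, all higher, against a background of 8.68% higher, 4.52% lower and 13.2% either. Log2 ratios carry 0.5 CPM on both sides, and their brackets are for the ratio of counts without it.

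Among the ligands, Fgf7 stood at 3.42 CPM (3.05 to 3.82) at E13.5, 9.35 CPM (7.84 to 11.1) at E15.5 and 22.9 CPM (17.0 to 30.3) at E18.5, differences of 1.33 (1.15 to 1.75) and 1.25 (0.79 to 1.78) on the log2 scale. Fgf10 stood at 12.3 CPM (11.6 to 13.1), 13.5 CPM (11.7 to 15.5) and 15.4 CPM (10.6 to 21.7), and its ratios of 0.12 (-0.10 to 0.35) and 0.19 (-0.38 to 0.73) spanned 0. The FGF ligands thus followed different courses, with Fgf7 further up at each age and Fgf10 within counting error of its earlier level. Shh was at or near 0 throughout, with 19 UMIs (0.209 CPM) at E13.5, 0 UMIs at E15.5, which allows up to 0.254 CPM by the exact interval, and 4 UMIs at E18.5.

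The receptors and the feedback gene did not pass 2-fold in either step. Fgfr1 stood at 61.6 CPM (60.02 to 63.3), 82.6 CPM (78.0 to 87.4) and 87.9 CPM (75.8 to 101), and Fgfr2 at 17.3 CPM (16.5 to 18.2), 16.6 CPM (14.6 to 18.9) and 13.1 CPM (8.70 to 18.9). Spry2 stood at 9.78 CPM (9.14 to 10.4), 15.7 CPM (13.7 to 17.8) and 22.9 CPM (17.0 to 30.3). Fgfr1 and Spry2 were higher at E15.5 than at E13.5, by 0.42 (0.33 to 0.51) and 0.65 (0.46 to 0.89), and Spry2 higher again at E18.5, by 0.53 (0.07 to 1.00). The ratios of Fgfr2, -0.06 and -0.33, had intervals that spanned 0.

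The hedgehog targets were lower at E15.5 than on either side. Ptch1 stood at 69.8 CPM (68.1 to 71.6), 30.6 CPM (27.8 to 33.6) and 57.5 CPM (47.8 to 68.6), and Gli1 at 16.1 CPM (15.3 to 16.9), 5.70 CPM (4.54 to 7.07) and 20.1 CPM (14.6 to 27.1). Hhip stood at 23.2 CPM (22.3 to 24.3), 13.8 CPM (11.9 to 15.8) and 141 CPM (125 to 158). From E13.5 to E15.5, Ptch1 fell by 1.18 on the log2 scale (-1.33 to -1.05), Gli1 by 1.42 (-1.83 to -1.18) and Hhip by 0.74 (-0.97 to -0.55), and from E15.5 to E18.5 they were higher by 0.90 (0.61 to 1.20), 1.73 (1.25 to 2.37) and 3.31 (3.09 to 3.62). At E18.5 Hhip was thus well above its E13.5 level, whereas Ptch1 and Gli1 were near theirs. With a pseudocount of 5 CPM the early difference was 0.77 for Fgf7 and -0.98 for Gli1, and with stricter classes -0.96 for Ptch1, so these 3 calls depended on the setting.

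**Figure D2:**
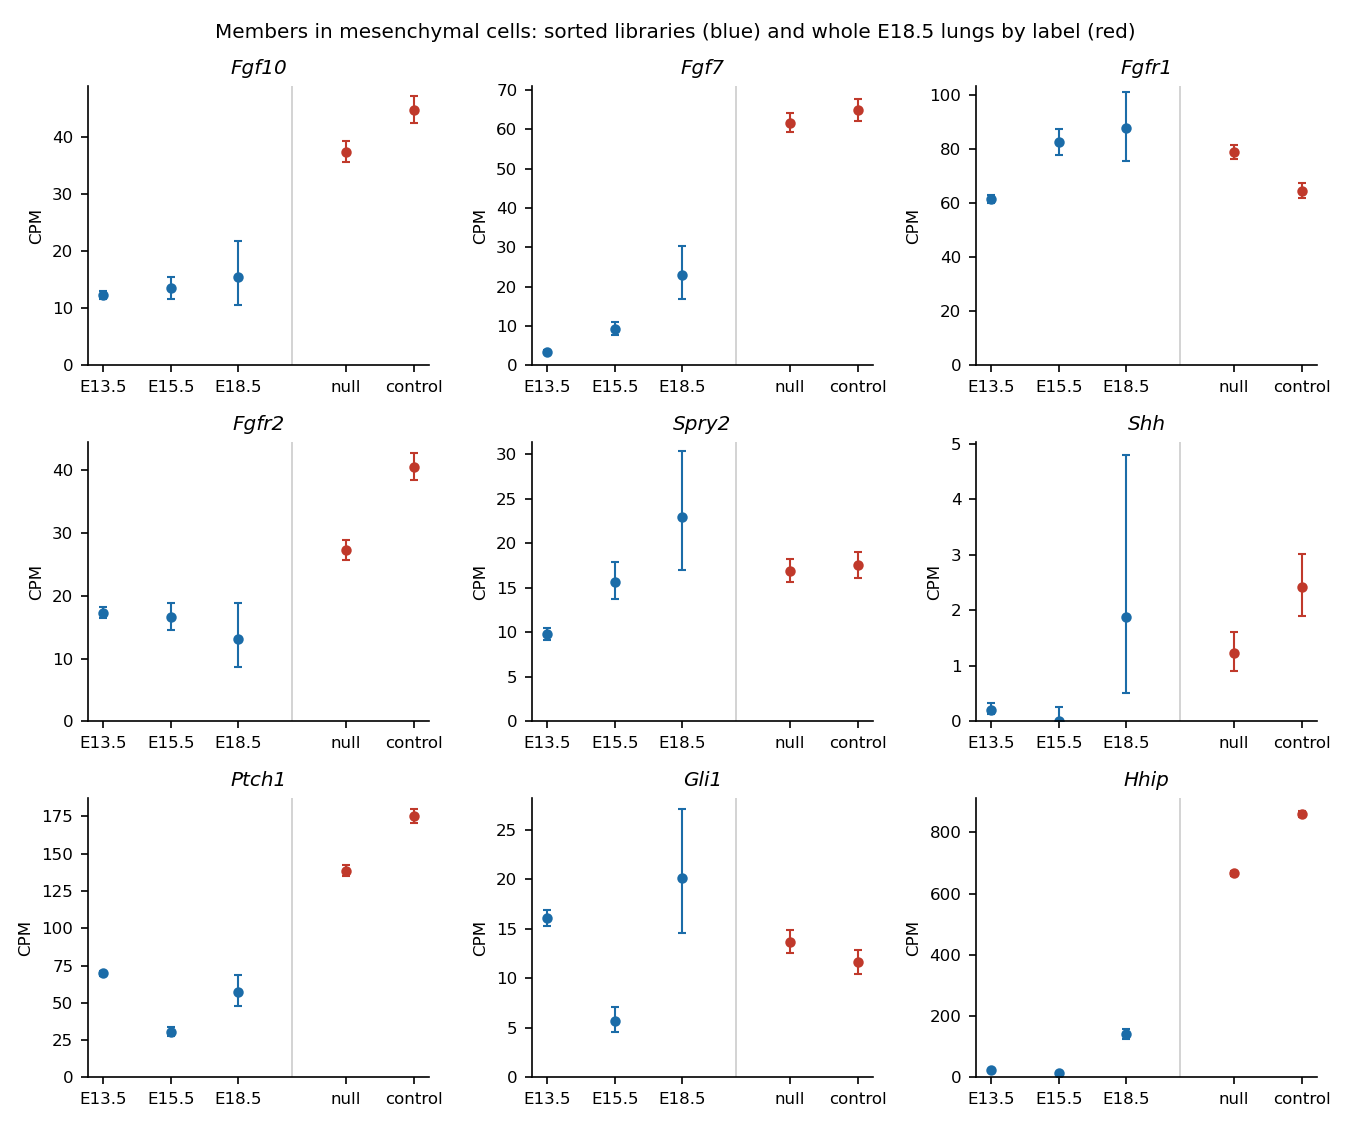
Levels of the 9 members in CPM in mesenchymal cells of the sorted libraries of E13.5, E15.5 and E18.5 and of whole E18.5 lungs labelled null and control. Points are class sums and bars 95% Poisson intervals. Ptch1, Gli1 and Hhip were lowest at E15.5 among the embryonic sorted libraries, and Fgf7 was higher at each age.

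Other genes differed between these libraries along with the members. The 5 smooth muscle markers summed to 2686 CPM at E13.5, 6061 CPM at E15.5 and 8105 CPM at E18.5 in the class. Cells with at least 10 UMIs of Acta2, Tagln and Myh11 were 26.2%, 61.5% and 52.6% of it, and cells with Tcf21, a fibroblast transcription factor gene, and fewer than 10 of those UMIs were 28.3%, 5.45% and 31.0%. Members were therefore read within each of these gates too, which were set on raw UMIs and so took deeper cells more readily.

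The hedgehog targets differed between the gates. In the Acta2 gate, Hhip stood at 57.9 CPM in 2911 cells at E13.5, 8.46 CPM in 1106 cells at E15.5 and 98.8 CPM in 122 cells at E18.5, a fall of 2.71 on the log2 scale (-3.12 to -2.45) and then a level higher by 3.47 (3.12 to 3.98). In the Tcf21 gate it stood at 7.68 CPM in 3151 cells, 23.4 CPM in 98 cells and 177 CPM in 72 cells, and was higher each time, by 1.55 (0.85 to 2.29) and 2.89 (2.19 to 3.72). The Hhip dip at E15.5 was therefore seen in the Acta2 gate and not in the Tcf21 gate, where its direction was the opposite. Ptch1 was lower at E15.5 in both, from 88.1 to 28.0 CPM (-1.64, -1.85 to -1.47) in the Acta2 gate and from 82.9 to 60.5 CPM (-0.45, -0.90 to -0.05) in the Tcf21 gate. Gli1 followed it, with ratios of -1.88 (-2.62 to -1.497) and -0.96 (-2.12 to -0.05), the latter on 9 UMIs at E15.5.

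The ligands were higher in the Tcf21 gate. Fgf10 stood at 17.5, 29.6 and 41.4 CPM there and at 4.596, 2.71 and 4.90 CPM in the Acta2 gate at the 3 ages. Fgf7 stood at 1.92, 16.0 and 41.4 CPM in the Tcf21 gate and at 1.18, 1.73 and 9.80 CPM in the Acta2 gate, with overlapping intervals at E13.5. Between E13.5 and E15.5 Fgf7 was higher by 2.77 (2.06 to 3.96) in the former, while its ratio of 0.41 (-0.40 to 1.44) in the latter spanned 0. Fgf10, level over the whole class, was higher by 0.74 (0.10 to 1.35) in the Tcf21 gate and lower at -0.67 (-1.44 to -0.14) in the Acta2 gate. Spry2 was higher by 1.78 (1.18 to 2.44) in the Tcf21 gate over the same step, from 8.60 to 30.9 CPM.

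**Figure D3:**
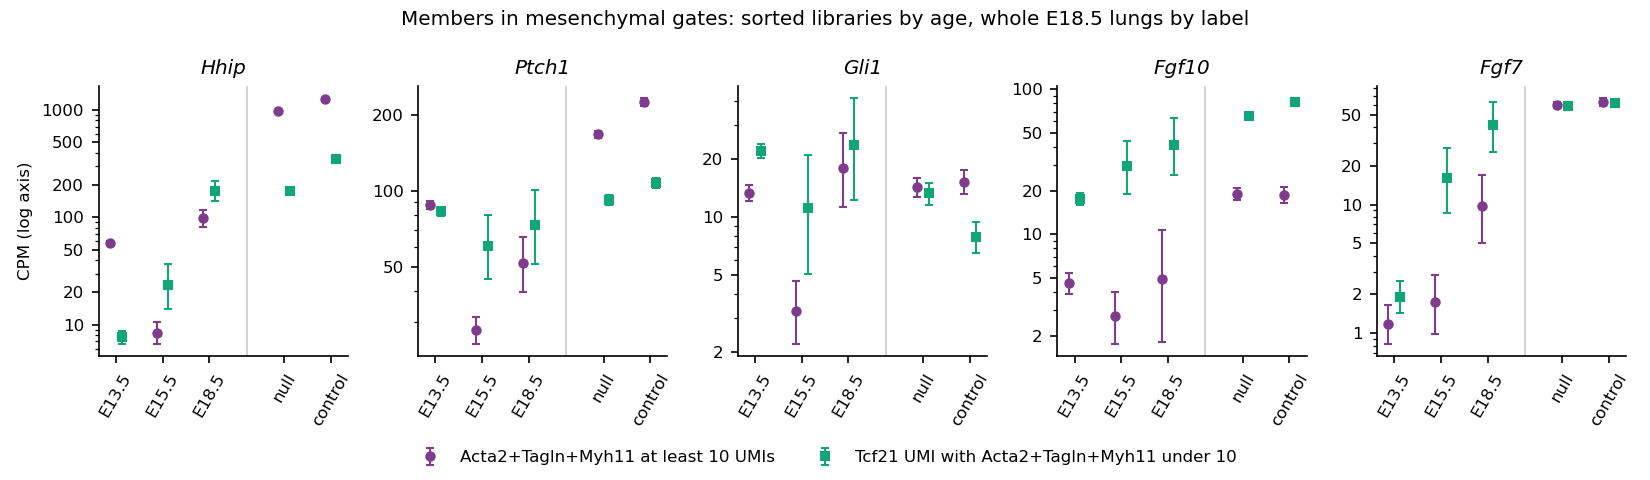
Hhip, Ptch1, Gli1, Fgf10 and Fgf7 in CPM (log axes) in mesenchymal cells with at least 10 UMIs of Acta2, Tagln and Myh11 (circles) and in Tcf21 cells with fewer (squares), by library, with 95% Poisson intervals. At E15.5 Hhip was at 8.46 CPM in the first gate and 23.4 CPM in the second, and Fgf10 was higher in the second in each of the 5 embryonic libraries.

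In the whole lungs the same gates held the members apart. Hhip stood at 981 and 1262 CPM in the Acta2 gate and at 177 and 351 CPM in the Tcf21 gate of the libraries labelled null and control, and Ptch1 at 168 and 225 CPM against 92.1 and 107.5 CPM. Fgf10 had the opposite arrangement, with 19.0 and 18.8 CPM in the Acta2 gate and 65.1 and 81.9 CPM in the Tcf21 gate. Fgf7 did not divide, with 58.3 to 62.7 CPM in all 4 gates, in contrast to the sorted libraries. The sorted E18.5 mesenchyme had less Hhip than either whole lung, 141 CPM against 666 and 859 CPM. That sort took only cells with the DsRed reporter and left 232 mesenchymal cells, so an effect of the sort and a difference between lungs cannot be told apart.

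Members were also found together or apart within single cells. In thinned mesenchymal cells, a Ptch1 UMI was present in 31.9% (29.8 to 34.0) of Hhip-positive and 18.1% (16.5 to 19.7) of Hhip-negative cells of the library labelled null, and in 35.5% (33.5 to 37.6) and 18.7% (16.8 to 20.7) of that labelled control. At E13.5 the shares were 29.0% (24.6 to 33.7) and 10.3% (9.74 to 10.9). Ptch1 was thus detected more often in cells with Hhip in each of these 3 libraries. In the smaller sorted libraries the shares were 26.3% (13.4 to 43.1) and 5.10% at E15.5, 27.9% (15.3 to 43.7) and 11.1% (7.01 to 16.5) with overlapping intervals at E18.5, and 7.14% (0.181 to 33.9) and 24.4% (12.9 to 39.5) in the 59 cells of P8. Ptch1 was in 23.4% (19.0 to 28.4) of Gli1-positive and 10.6% (10.0 to 11.2) of Gli1-negative cells at E13.5, and in 40.9% (30.5 to 51.9) and 28.2% (26.8 to 29.7) in the library labelled control. In the library labelled null the shares were 27.7% (19.3 to 37.5) and 24.3% (23.0 to 25.6), and these intervals overlapped.

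Fgf10 was found less often in cells with Hhip or Ptch1 in the whole lungs and at E13.5. It was detected in 2.71% (2.03 to 3.52) of Hhip-positive and 9.73% (8.56 to 11.01) of Hhip-negative cells of the library labelled null, and in 6.25% (5.28 to 7.34) and 10.7% (9.23 to 12.3) of that labelled control, and at E13.5 in 0.744% (0.154 to 2.16) and 2.68% (2.38 to 3.01). In the smaller sorted libraries of E15.5 and E18.5 the Hhip shares ran the other way with overlapping intervals, 2.63% against 2.41% and 6.98% against 4.23%. For Gli1 the intervals overlapped in each of the 3 larger libraries, with 4.95% (1.63 to 11.2) of Gli1-positive and 6.56% of the other cells labelled null, 4.55% (1.25 to 11.2) and 8.19% of those labelled control, and 2.10% and 2.63% at E13.5. Of Fgf10-positive cells, 15% (11.03 to 19.7) and 16.5% (12.5 to 21.1) had a Ptch1 UMI, against 25.0% (23.7 to 26.4) and 29.6% (28.1 to 31.1) of the others. At E13.5 the order was the same, with 6.23% (3.73 to 9.67) and 11.1% (10.53 to 11.7). Fgf10 and Fgf7, both ligands, showed no such separation: Fgf7 was in 13.6% (9.79 to 18.2) of Fgf10-positive and 11.99% (11 to 13.04) of Fgf10-negative cells in the library labelled null. Each of these shares is a description of cells within 1 library, and Hhip-positive cells there had a median of 7559 UMIs before thinning against 9296 for the others.

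Between the whole lungs labelled null and control, 0 of 8 members in mesenchymal, 0 of 8 in epithelial and 0 of 6 in endothelial cells passed 2-fold. With the authors' adjusted values the endothelial count was 2 of 5, Fgfr1 (1.21) and Spry2 (1.60), both higher in the library labelled null. No share of all genes was taken on the adjusted values, so that count has none to be read beside. On the unadjusted values, 0.795% of all genes were 2-fold higher and 0.7% lower in mesenchymal cells (1.5% either). The shares were 0.459% and 0.261% in epithelial (0.719%) and 0.614% and 0.69% in endothelial cells (1.3%). Smaller differences exceeded counting error. Mesenchymal Fgfr2 was lower in the library labelled null at -0.56 on the log2 scale (-0.69 to -0.45), Hhip at -0.37 (-0.39 to -0.34), Ptch1 at -0.34 (-0.39 to -0.28) and Fgf10 at -0.26 (-0.36 to -0.15). Fgfr1 was higher there by 0.29 (0.21 to 0.37) and Gli1 by 0.23 (0.04 to 0.43). The ratios of Fgf7, -0.07 (-0.16 to 0.01), and Spry2, -0.05 (-0.22 to 0.11), spanned 0. With values adjusted by the authors for free RNA, the ratio was -0.63 for Hhip, -0.56 for Ptch1, -0.59 for Fgf10, -0.37 for Fgf7, 0.15 for Fgfr1, 0.16 for Gli1 and 0.15 for Spry2. Without replicates, none of these can be set against the spread between lungs.

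Fgfr2 was lower in the library labelled null in all 3 classes, with epithelial and endothelial log2 ratios of -0.51 (-0.61 to -0.41) and -0.41 (-0.56 to -0.27). Within the epithelium it was lower in each of the 3 gates, with overlapping intervals in the Ager and Hopx gate, and without the collagen-bearing cells it was at 112 against 167 CPM. With the authors' adjusted values its mesenchymal and epithelial ratios were -0.55 and -0.78, while the endothelial ratio was 0.33, in the other direction. In the endothelial class the epithelial markers summed to 428 and 1200 CPM and those of surfactant-producing cells to 384 and 1210 CPM in the libraries labelled null and control, and their part in the Fgfr2 ratio was not tested. Shh, at -0.04 (-0.20 to 0.12) in the epithelium, did not differ beyond counting error. Epithelial Ptch1 was lower in the library labelled null at -0.43 (-0.59 to -0.27), but 0.33 higher with the adjusted values. Endothelial Hhip was lower in the library labelled null at -0.20 (-0.29 to -0.11). In endothelial cells with fewer than 5 collagen UMIs its ratio was -0.51, but 0.59 with the adjusted values (4.26 and 2.66 CPM). Endothelial Fgf10, under 5 CPM in both libraries, was lower in the library labelled null at -0.60 (-1.10 to -0.26). Outside the collagen-bearing cells it stood at 0.487 and 0.714 CPM, and at 0 in both libraries with the adjusted values. Endothelial Fgfr1 was higher in the library labelled null by 0.48 (0.33 to 0.64), and by 1.21 with the adjusted values. That adjustment removed 18.1% of UMIs of the library labelled null and 39.7% of that labelled control.

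Inside the mesenchymal gates some differences between the labels were larger than over the class. Hhip in the Tcf21 gate was at 177 CPM in 1902 cells labelled null and 351 CPM in 1766 labelled control, a log2 ratio of -0.99 (-1.05 to -0.92), which became -1.09 with the adjusted values and -1.07 without Scrublet calls. In the Acta2 gate the Hhip ratio was -0.36 (-0.39 to -0.33), and -0.71 with the adjusted values. Fgfr2 was lower in the library labelled null in the Acta2 gate, at 31.4 against 49.97 CPM (-0.66, -0.83 to -0.51), and in the Tcf21 gate (-0.41, -0.65 to -0.20). Gli1 in the Tcf21 gate was higher in the library labelled null, at 13.3 against 7.84 CPM (0.72, 0.43 to 1.09), and its ratio in the Acta2 gate, -0.09 (-0.35 to 0.18), spanned 0. In cells with at least 2 UMIs of Cspg4 and Notch3, genes of pericytes, Fgf10 was at 12.98 CPM in 584 cells labelled null and 30.7 CPM in 404 labelled control, a ratio of -1.21 (-1.63 to -0.86). The larger gates did not share this, with Fgf10 ratios of -0.33 in the Tcf21 gate and 0.01 in the Acta2 gate. In cells with at least 2 UMIs of Pdgfra it was -0.05. No share of all genes was taken within the gates. These gates were opened with the class values known. The Acta2 gate held 46.9% of mesenchymal cells labelled null and 36.6% of those labelled control. The epithelial markers summed to 1050 and 1880 CPM and the immune markers to 382 and 690 CPM in the mesenchymal class, and their part in the differences was not tested.

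**Figure D4:**
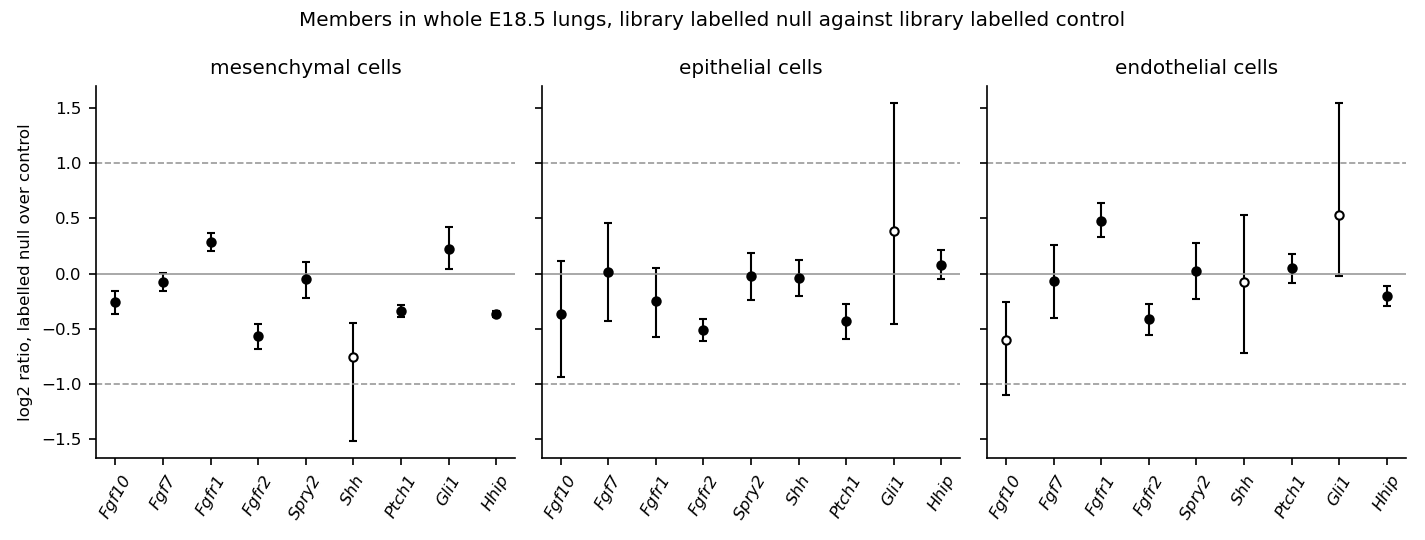
Log2 ratio of each member in whole E18.5 lungs, library labelled null over library labelled control, in mesenchymal, epithelial and endothelial cells. Points carry 95% intervals of the count ratio, open points are under 5 CPM in both libraries, and dashed lines mark 2-fold. No member of at least 5 CPM passed 2-fold, and Fgfr2 was below 0 in all 3 classes; with the authors' adjusted values, which are not drawn, endothelial Fgfr1 and Spry2 passed 2-fold and endothelial Fgfr2 was above 0.

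In the sorted endothelium the FGF receptors moved in opposite directions between E15.5 and E18.5. Fgfr1 stood at 63.3 CPM (52.2 to 76.0) in the 210 endothelial cells at E13.5, 47.2 CPM (45.9 to 48.6) at E15.5, 34.1 CPM (32.7 to 35.6) at E18.5 and 14.1 CPM (13.2 to 15.1) at P8. Fgfr2 stood at 3.89 CPM (1.56 to 8.00), 4.68 CPM (4.25 to 5.13), 22.0 CPM (20.9 to 23.2) and 16.8 CPM (15.8 to 17.9). Fgfr1 was thus lower at each age, and Fgfr2 was higher by 2.12 (2.08 to 2.39) at E18.5 than at E15.5 and lower at P8, at -0.38 (-0.51 to -0.27). From E15.5 to P8 the epithelial markers summed to 44.1, 499 and 399 CPM in these cells and those of surfactant-producing cells to 25.7, 508 and 418 CPM, and their part in the Fgfr2 differences was not tested. Spry2 stood at 5.55, 4.66, 6.84 and 19.9 CPM (18.8 to 21.02), and was higher by 1.47 (1.38 to 1.70) at P8 than at E18.5. Fgfr1 fell by 1.25 (-1.39 to -1.16) over that last step. Fgfr2 was 1 of 4 members past 2-fold between E15.5 and E18.5, where 9.19% of all genes were higher and 5.33% lower (14.5% either). Fgfr1 and Spry2 were 2 of 4 between E18.5 and P8, where 4.58% were higher and 5.13% lower (9.71% either). The median gene of at least 20 CPM was higher by 0.12 at E18.5 than at E15.5.

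Ptch1 was found in the sorted endothelium at every age, with 35.0 CPM (26.9 to 44.7), 24.9 CPM (23.9 to 25.9), 36.3 CPM (34.8 to 37.9) and 36.3 CPM (34.8 to 37.9). The mesenchymal markers summed to 879, 397, 153 and 25.6 CPM in these cells, and Hhip stood at 3.89, 0.797, 3.01 and 0.194 CPM. Ptch1 was thus as high at P8 as at E18.5, while the marker sum and Hhip were lower. At P8 Gli1 had 3 UMIs in 8259 cells and Hhip 12. At E18.5 Ptch1 was higher in the 5389 cells with at least 3 UMIs of the arterial connexin genes Gja4 and Gja5, 42.8 CPM (40.7 to 44.9), than in the rest, 25.7 CPM (23.6 to 27.8). Fgfr2 was the reverse, with 14.1 CPM (12.9 to 15.3) in those cells and 35.2 CPM (32.8 to 37.7) in the rest, and 35.6 CPM (31.4 to 40.3) in 852 cells with Car4, a gene of alveolar capillaries. The whole lungs had the same order for Fgfr2, with 18.4 and 23.8 CPM in the connexin gate and 34.0 and 40.4 CPM outside it. The Car4 cells also had more Fgfr1, 53.8 against 31.5 CPM.

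**Figure D5:**
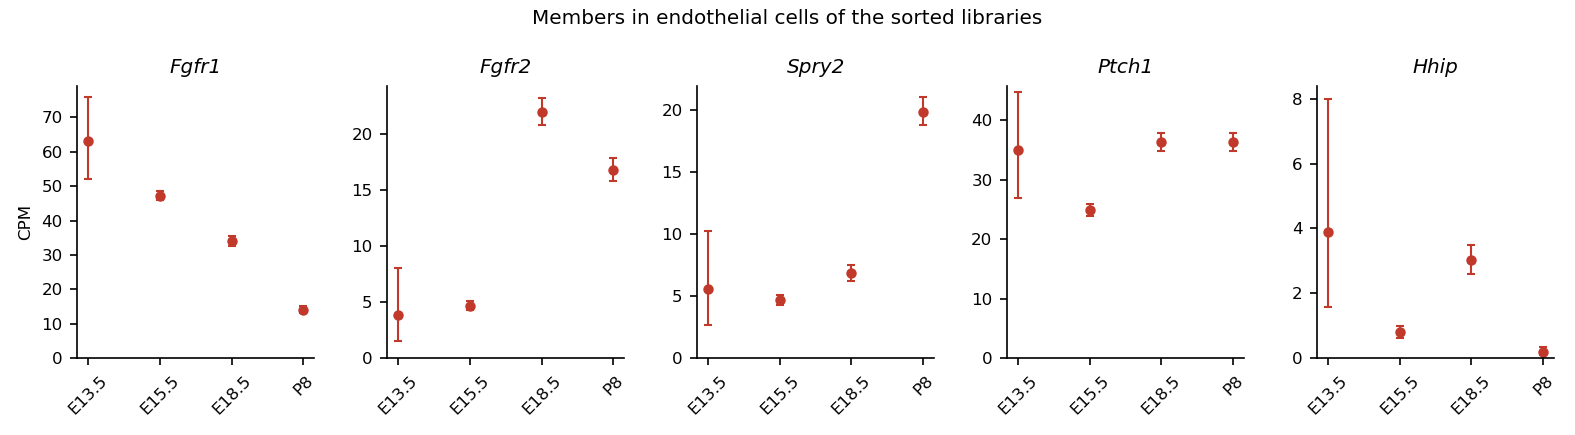
Fgfr1, Fgfr2, Spry2, Ptch1 and Hhip in CPM in endothelial cells of the 4 sorted libraries from E13.5 to P8, with 95% Poisson intervals. Fgfr1 was lower at each age, Fgfr2 was near 4 to 5 CPM until E15.5 and at 22.0 CPM at E18.5, and Spry2 was highest at P8.

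The other genes of both pathways were read from lists of 27 ligands, receptors, feedback genes and transducers. In mesenchyme between E13.5 and E15.5, 18 reached 5 CPM, of which Fgf18 (1.11) and Spry1 (1.05) were past 2-fold higher and Foxf1 lower, from 68.0 to 12.7 CPM (-2.38, -2.65 to -2.22), against 7.46% higher and 4.89% lower of all genes. Foxf1 is a hedgehog target of lung mesenchyme and shared the E15.5 dip of Ptch1 and Gli1. Between E15.5 and E18.5, 22 reached 5 CPM, of which 10 were past 2-fold higher and 2 lower, against 8.68% and 4.52% of all genes, with a median of 0.54 against 0.05 for all genes tested. The largest were the receptor genes Fgfr4 (3.99, from 0.825 to 20.6 CPM) and Fgfr3 (3.07, from 2.41 to 23.9 CPM), then Fgf1 (2.74, from 0.344 CPM on 5 UMIs to 5.15 CPM on 11 UMIs) and Foxf1 (1.94, from 12.7 to 50.04 CPM). Cdon and Gli2 were the 2 lower. In the same cells at E15.5 and E18.5 the epithelial markers summed to 18.28 and 65.95 CPM. Those of alveolar type 1 cells summed to 29.35 and 181 CPM and those of ciliated cells to 24.47 and 97.28 CPM. Their part in these differences was not tested.

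Between the whole-lung labels 0 of 20 list genes in mesenchymal, 0 of 18 in epithelial and 0 of 18 in endothelial cells passed 2-fold. Of all genes, 1.5%, 0.719% and 1.3% passed it in these classes, so the counts are near those shares. The counts of members on unadjusted values were 0 as well. In the sorted endothelium, 6 of 15 were past 2-fold higher at E18.5 than at E15.5 and 0 lower, against 9.19% and 5.33% of all genes, with a median of 0.73 against 0.18 for all genes. Fgf1 stood at 0.231 and 19.9 CPM, Fgfr3 at 9.02 and 46.1 CPM (2.29), Foxf1 at 86.9 and 305 CPM (1.81) and Spry4 at 17.4 and 53.2 CPM (1.59). Between E18.5 and P8, 3 of 14 were past 2-fold higher and 0 lower, against 4.58% and 5.13% of all genes, namely Foxf1 (1.51), Spry4 (1.30) and Spred2 (1.00). The feedback genes Spry4 and Spred2 were thus higher at P8 together with the member Spry2. Dhh, another hedgehog ligand gene, stood at 93.8 CPM (80.2 to 109), 44.4 CPM (43.1 to 45.8), 33.7 CPM (32.2 to 35.2) and 22.4 CPM (21.2 to 23.6) in the sorted endothelium from E13.5 to P8, and at 9.85 and 5.09 CPM in the endothelial class labelled null and control.

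Over 19 populations, each a class of at least 50 cells in 1 library, the genes most like each of 3 members in log2 CPM were sought among 10047 genes. For Fgf10 they were Scara5 (Pearson r 0.976), Rgs17 (0.970) and Dtx3 (0.963), for Ptch1 Plekha5 (0.958), Thap2 (0.951) and Setbp1 (0.949), and for Shh Crb3 (0.994), Mal2 (0.993) and Cldn4 (0.992). The points include the epithelial classes of the sorted E13.5 and E15.5 libraries, most cells of which also met another class rule. They share libraries and depth, and the coefficients are a description.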

How the data were processed

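Mouse lung cells of 6 droplet libraries were analysed, grouped by their labels, with 1 library per group. The authors prepared 3′ tag libraries, ran CellRanger on mm10 and deposited the counts of UMIs per gene and cell without normalization. Version 3.0.2 is named in the headers of E15.5, E18.5 and P8, and version 3.1.0 in the rest. The E13.5 and E15.5 libraries thus differ in version, and its part in the ratios between them was not tested. A set of expected counts deposited with the whole-lung data holds the same values after SoupX adjustment for free RNA, which are not whole numbers.

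As in the study's methods, a cell needed 700 genes or more and a mitochondrial share of 0.5% to 10%, taken on the adjusted values where these existed. Levels are summed UMIs of a class in CPM with exact Poisson intervals. Log2 ratios add 0.5 CPM, and their intervals are exact conditional binomial. Shares are of cells thinned to 2000 UMIs, with exact Clopper-Pearson intervals. The call was a ratio past 2-fold with at least 5 CPM in either library. No test was run. PCR copies are removed by UMIs, and a library's totals limit precision to the intervals printed.

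All 9 members were read in every comparison, but not each ratio is printed, among them those of Fgf10, Fgf7 and Shh in the sorted endothelium. Cxcl12 is named as the check of labels, and of 27 further pathway genes up to 4 with the largest ratios. Also named are the 3 genes most like Fgf10, Ptch1 and Shh by Pearson r of log2(CPM + 1). The members and lists were chosen with earlier results of these data known. The endothelial gates, the collagen gate and the ratios within gates were added after member levels had been seen, and Cdon and Gli2 were named after their values were seen. Alternatives were stricter and exclusive classes, no cell filter, adjusted values, Scrublet calls removed, mean of per-cell CPM, other totals, median-of-ratios scaling, another pseudocount and minimum, and shared barcodes left out. Where Scrublet marked under 0.5% of cells, the expected share of highest scores was taken. Places come from the GENCODE M21 annotation. The steps were tested on simulated data. Python 3.11.15, numpy 2.4.6, scipy 1.17.1, pandas 2.3.3, scanpy 1.11.5 and matplotlib 3.10.9 were used.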

Additional observations from a re-analysis of the deposited data

Results flagged for a closer look

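The sorted P8 library held 59 cells of the mesenchymal class, which the time comparison did not use, and 7 members were above the level of 3 counts there. Hhip stood at 294 CPM (247 to 348), Ptch1 at 112.5 CPM (84.0 to 147.5) and Gli1 at 17.3 CPM (7.47 to 34.1). Fgfr1 stood at 102 CPM (74.7 to 135), Fgf7 at 41.1 CPM (24.7 to 64.2), Spry2 at 23.8 CPM (11.9 to 42.6) and Fgfr2 at 21.6 CPM (10.4 to 39.8). Fgf10 had 1 UMI and Shh 0.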

How the results depend on the processing

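No paired analysis was possible because each group had 1 library. The count of members past 2-fold between E13.5 and E15.5 mesenchyme, 3 of 8, was 1 of 8 with a pseudocount of 5 CPM and 1 of 2 with a minimum of 50 CPM. Between E15.5 and E18.5 mesenchyme it was 1 of 3 with a minimum of 50 CPM, in place of 3 of 8. In the sorted endothelium of E15.5, E18.5 and P8 no member reached that minimum. Both counts there, 1 of 4 and 2 of 4, were therefore 0 of 0 with it. Between the labels in endothelial cells it was 2 of 5 with the SoupX-adjusted values, Fgfr1 (1.21) and Spry2 (1.60), both higher in the library labelled null, in place of 0 of 6. No share of all genes was taken on those values. Of 85 counts of members under an alternative, 79 stayed within 1.5 times. Of the log2 ratios under an alternative, 460 lay within the counting interval of the main ratio and 98 outside it. That interval has no pseudocount, so some main ratios of low counts lay outside their own. Endothelial Hhip at E18.5 over E15.5, at 1.437 against 1.524 to 2.325, is an example. Of the levels in CPM, 735 stayed within their counting interval and 219 did not. With the SoupX-adjusted values, 45 whole-lung levels lay outside it and 9 within. With the mean of per-cell CPM, 54 lay outside and 99 within, so the brackets of levels do not cover the choice of processing. No ratio past 2-fold changed its sign. Depth limits the sorted E18.5 and P8 mesenchyme, with 232 and 59 cells, the 210 sorted endothelial cells of E13.5, and Shh outside the epithelium. Shared barcodes, doublet calls on the 2 sorted libraries where Scrublet's own threshold marked few cells, and the gates were alternatives chosen after seeing the data.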
